A study of Drosophila melanogaster with 6 samples.

Results

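The noncoding and pseudogene transcripts that changed in the *Drosophila* head 4 hr after penetrating traumatic brain injury (PTBI) are described here. They are the genes of the deposited comparison whose symbol is CR followed by digits or contains RNA:CR, without *CR44404*, which is now the coding gene *IBIN*, and without *CR44651*. This rule found 22 of the 367 listed genes, of which 14 were listed as higher and 8 as lower after PTBI. They made up 5.41% of the 259 genes listed as higher and 7.41% of the 108 listed as lower. The label did not hold for *CR45045*, which the annotation used here gives as the coding gene *CG45045*. By the RefSeq biotype, 10 of the others were antisense RNAs, 9 long noncoding RNAs (lncRNAs) and 2 pseudogenes. The study compared heads of young males taken 4 hr after a sterile needle was passed into both hemispheres of the central brain with heads of uninjured males matched for age and sex. There were 3 samples in each group, labelled as biological replicates, each a pool of about 100 to 120 heads. Injured and control flies alike were offspring of w; UAS-mCD8-GFP;; OK107-GAL4 crossed to yw, so both groups carried a membrane GFP and the mushroom body driver, and all were collected by 6 hr after eclosion. The sources used here do not say whether the uninjured flies were anaesthetised, so anaesthesia cannot be told apart from the injury.

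Long noncoding RNAs are transcribed and often spliced and polyadenylated like mRNAs but hold no long reading frame. An antisense RNA is read from the strand opposite to another gene and can share part or all of its exons in reverse complement. A pseudogene descends from a coding gene that has lost its function, and it can still be transcribed, often beside its relatives. Some noncoding transcripts are precursors of small RNAs, as the bantam microRNA is cut from a long primary transcript. The libraries were made from mRNA with a strand-specific kit, so the transcripts seen here are mainly those with a poly(A) tail, and mature microRNAs are not measured by them.

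The values are RPKM, that is reads per kilobase of gene scaled to the size of the library. The steps between low RPKM values and the exon lengths gave back whole reads, within 0.02 reads, for 21 of the 22 transcripts. The library sizes implied were 24.3 to 35.2 M reads in PTBI heads and 26.5 to 36.2 M reads in control heads. The 21 transcripts together took 46.9 to 55.2 CPM (reads scaled to library size alone) in PTBI heads and 54.2 to 66.5 CPM in control heads, and these ranges overlapped. This sum pools 13 transcripts listed as higher with 8 listed as lower and leaves out *CR45045*, so it gives no direction for the group. Of the marker lists looked up, the listing held 4 of 6 fat body, 2 of 4 glial and 2 of 4 salivary gland genes, all listed as lower, and none of the neuronal, photoreceptor, haemocyte and muscle genes, which thus have no value here. The summed fat body markers were at 135 to 314 RPKM after PTBI and 1078 to 1693 RPKM in controls. The glial ones were at 20.9 to 22.8 RPKM after PTBI and 58.9 to 64.8 RPKM in controls. Both salivary gland genes were at 0 RPKM in all PTBI samples, with a sum of 0.407 to 2.78 RPKM in controls. The part of these tissues in the results was not tested. In whole heads, fewer cells of a type and less RNA per cell cannot be told apart.

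Of the 14 transcripts listed as higher, 12 passed an adjusted p of 0.05 in limma on log2(RPKM + 1), and of the 8 listed as lower 7 did. Over all listed genes the shares were 95.8% of those listed as higher and 98.1% of those listed as lower, and 96.5% of all 367, so these counts are near or below the background. With 0.1 RPKM added instead of 1, 13 of the 14 and all 8 passed, as did 99.6% and 100% of the genes listed in those directions. After subtracting from each sample the median of its listed genes, which was 0.66 (log2) higher in the PTBI samples because most listed genes rose, 4 of the 14 passed as higher and 9 had a log2 fold change below 0, while all 8 passed as lower. The shares over all listed genes were not counted on this scale, so these counts may be no trait of these transcripts. Every PTBI sample lay beyond every control sample for all 22 transcripts, as it did for 100% of the listed genes in either direction. Because the genes were listed for their change in these samples, the p-values are no independent evidence of it. Transcripts that missed the threshold were *CR43464* and *CR43334* among the higher and *CR45142* among the lower.

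In level the transcripts were low. Their median over all 6 samples was 0.671 RPKM, against 9.95 RPKM for the other 345 listed genes. The mean of the 6 samples was under 1 RPKM for 12 of the 22, or 54.5%, and for 80 of the others, or 23.2%. The folds of the 14 higher transcripts (PTBI mean over control mean) ran from 2.09 to 14.9, with a median of 3.85, against a median of 3.13 over all genes listed as higher. For the 8 lower transcripts the fold (control mean over PTBI mean) ran from 2.29 to 4.47, with a median of 2.63, against 2.49 over all genes listed as lower. The relative spread between replicates was larger than for the other listed genes. The median coefficient of variation was 22.7% in the PTBI samples and 24.0% in the controls, against 19.0% in the PTBI samples and 14.1% in the controls over the other listed genes. These are descriptions of lists of unequal level.

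**Figure D1:**
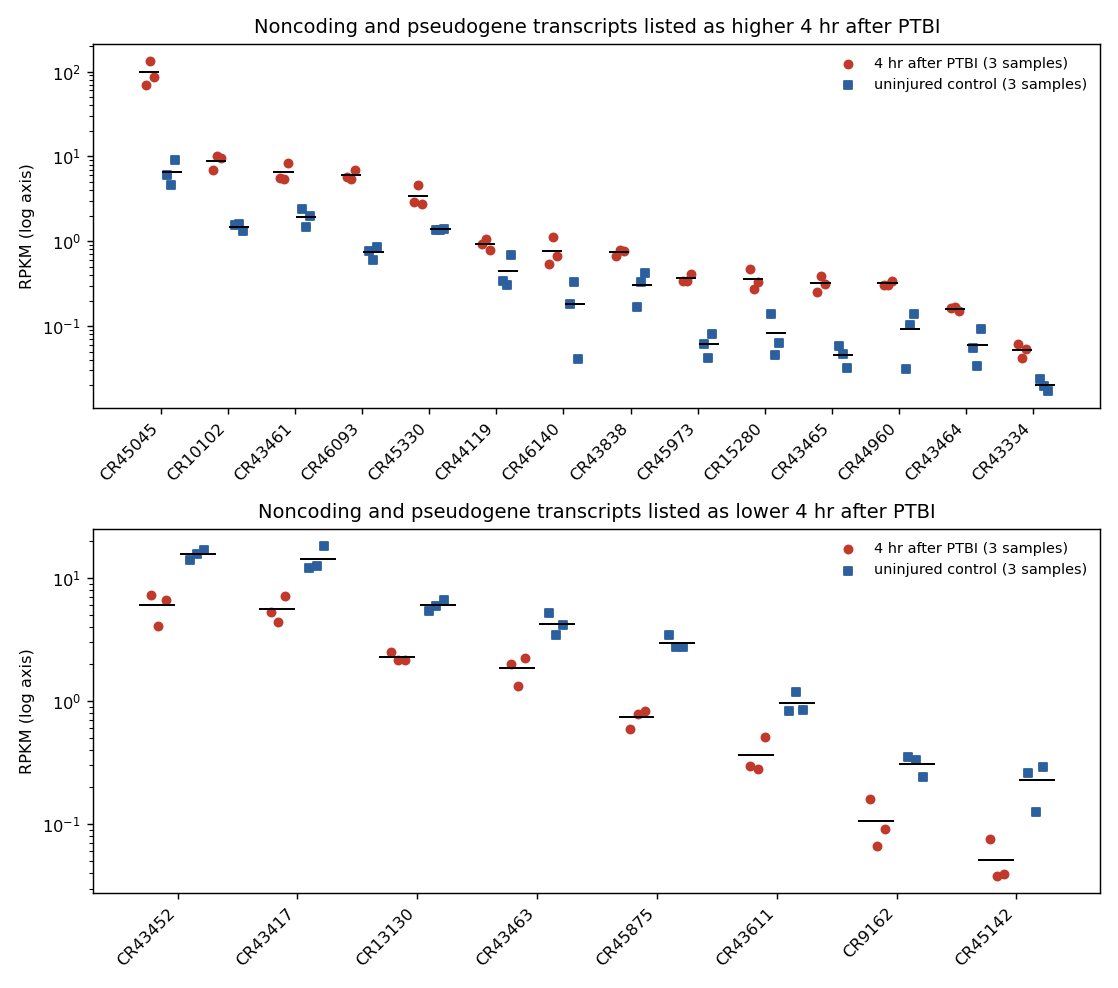
RPKM (log axis) of the 22 transcripts in each sample, with 4 hr after PTBI as red circles left of the uninjured controls as blue squares, and the group mean as a line. The upper panel holds the 14 listed as higher and the lower panel the 8 listed as lower. In each panel the groups do not overlap. PTBI means run from 97.5 RPKM for *CR45045* to 0.0508 RPKM for *CR45142*.

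**Figure D2:**
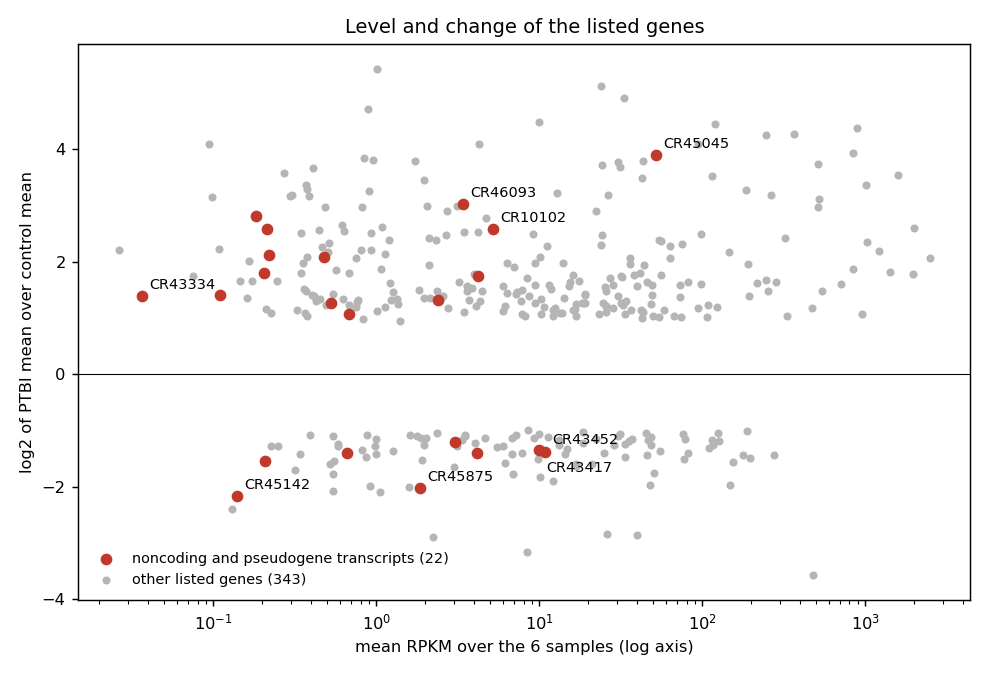
Mean RPKM over the 6 samples (log axis) against the log2 of the PTBI mean over the control mean, for the 22 transcripts in red and 343 other listed genes in grey. The 2 listed genes with no read in any PTBI sample are not drawn. The red points lie mostly to the left, at a median of 0.671 RPKM, and the highest is *CR45045*.

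The largest change was that of *CR45045* (chromosome 3R, 17667572 to 17667825, BDGP6), a gene of 1 exon and 254 bases that lies in an intron of *CG14322* on the same strand. It was at 70.4, 135 and 87.2 RPKM in PTBI heads and 6.07, 4.55 and 9.08 RPKM in control heads. Even the lowest injured sample was several times above the highest control, and the group means were 97.5 ± 33.5 RPKM in PTBI heads and 6.57 ± 2.30 RPKM in control heads (SD, n = 3 each), 14.9-fold higher after PTBI. Limma gave a log2 fold change of 3.69 (SE 0.30, BH-adjusted p = 5.7e-05). The annotation once carried this gene as a noncoding RNA and now gives it as coding. Without it, 11 of the remaining 13 transcripts passed as higher, beside 95.8% of all genes listed as higher. The RPKM of *CR45045* did not turn into whole reads with the exon length of this annotation, and its reads are not given. No listed gene lay within 10 kb, and the nearest were *CG43175* and *AttD*, an antibacterial attacin gene, 22310 and 41486 bases away.

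Both pseudogenes rose on log2(RPKM + 1), while with the sample medians subtracted the log2 fold change of *CR15280* was -0.34. *CR10102* (chromosome 2R, 14360433 to 14361780, BDGP6), also called *Arc3*, lies between *Arc1* and *Arc2*, whose proteins are related to the Gag proteins of retrotransposons. Fly *Arc1* forms capsids that carry its own mRNA between cells. The pseudogene lies 136 bases from *Arc1* on the same strand and 144 bases from *Arc2* on the opposite one. It was at 6.93, 10.1 and 9.58 RPKM in PTBI heads and 1.54, 1.60 and 1.31 RPKM in control heads. The reads behind these values numbered 282, 330 and 454 in PTBI heads and 62, 78 and 47 in control heads. The group means were 8.85 ± 1.68 RPKM in PTBI heads and 1.49 ± 0.152 RPKM in control heads (SD, n = 3 each), 5.96-fold higher after PTBI, and limma gave a log2 fold change of 1.97 (SE 0.15, BH-adjusted p = 4.5e-05). Both neighbours were listed as higher too. *Arc1* was at 137, 183 and 178 RPKM in PTBI heads and 27.6, 31.6 and 29.2 RPKM in control heads, 5.62-fold higher, and *Arc2* at 7.86, 10.7 and 8.35 RPKM in PTBI heads and 2.83, 2.76 and 3.51 RPKM in control heads, 2.96-fold higher.

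The pseudogene was then set against each neighbour in the same sample. Its RPKM was 5.07, 5.49 and 5.39% of that of *Arc1* in the PTBI samples and 5.59, 5.06 and 4.50% in the controls, so the groups overlapped (exact two-sided permutation test, p = 0.6). Against *Arc2* it was at 88.2, 94.0 and 114.6% in the PTBI samples and 54.6, 58.0 and 37.4% in the controls, with no overlap (exact two-sided permutation test, p = 0.1, the smallest that 3 against 3 can give). Over the 8 pairs of a transcript and a listed neighbour within 10 kb compared in this way, the smallest adjusted p was 0.267. The sources used here do not give how reads mapping to several related genes were counted, so the split between the pseudogene and its relatives is uncertain.

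The other pseudogene, *CR15280* (chromosome 2L, 14781715 to 14783110, BDGP6), has the synonym *SPH204* in RefSeq and 4 exons. It had 17, 8 and 14 reads in PTBI heads and 5, 2 and 2 reads in control heads, that is 0.466, 0.272 and 0.329 RPKM in PTBI heads and 0.139, 0.0457 and 0.0623 RPKM in control heads. The ratio of the pooled read rates was 4.47 (95% exact interval 2.13 to 10.5), and intervals of this kind cover counting error only. Its fold of 4.32 became 6.58 without control replicate 1, where 5 of the 9 control reads lay, and 3.54 without control replicate 2. Limma gave a log2 fold change of 0.32 (SE 0.10, BH-adjusted p = 0.016), and this call was lost without control replicate 2 or 3 (adjusted p = 0.060 and 0.051). The nearest listed gene was *CG4650*, 6734 bases away on the same strand, at 1.20, 0.767 and 0.590 RPKM in PTBI heads and 0.279, 0.115 and 0.117 RPKM in control heads. The pseudogene was at 38.7, 35.4 and 55.8% of it in the PTBI samples and 49.8, 39.9 and 53.2% in the controls, and these overlapped (exact two-sided permutation test, p = 0.6).

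**Figure D3:**
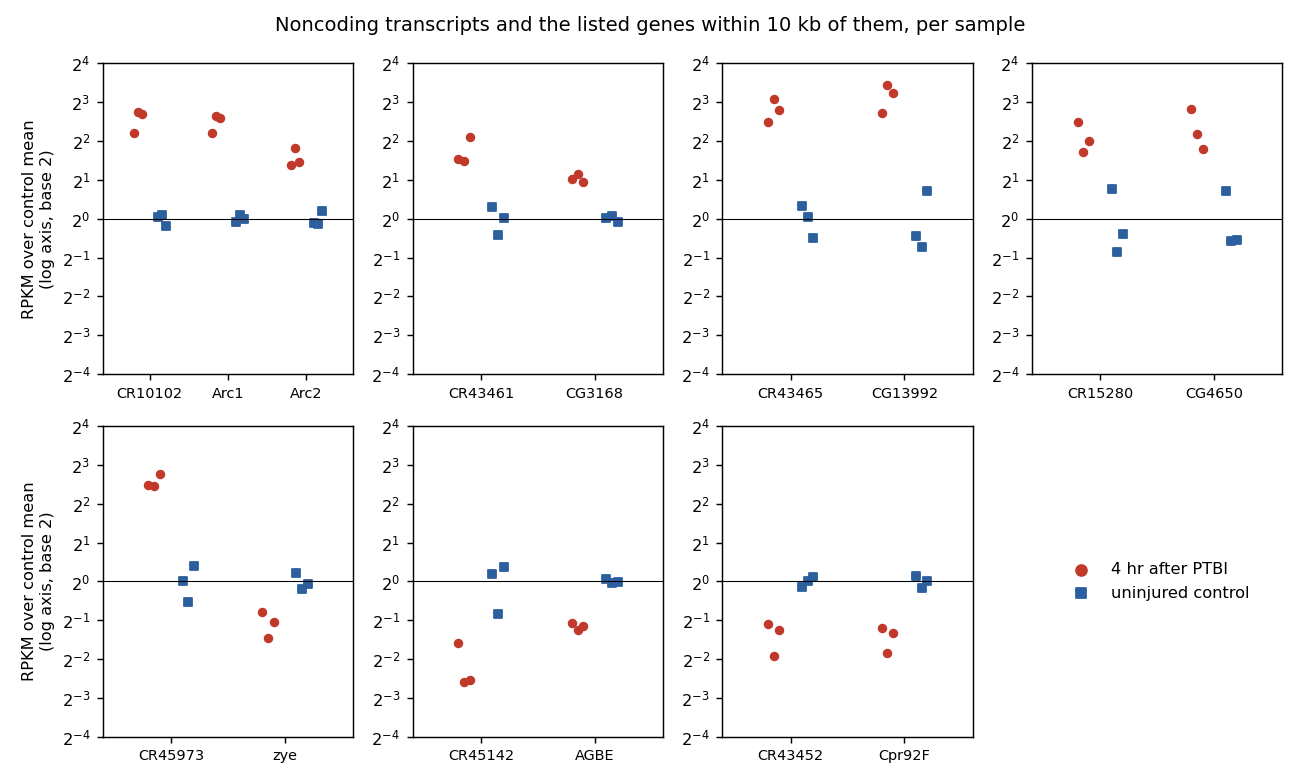
RPKM of 7 transcripts and of the listed genes within 10 kb of each, divided by the gene's own control mean (log axis, base 2), with 4 hr after PTBI as red circles left of the uninjured controls as blue squares. *CR10102*, *CR43461*, *CR43465* and *CR15280* and their neighbours lie above the line at 1 after PTBI, *CR45142* and *CR43452* and theirs below it, and *CR45973* lies above while *zye* lies below.

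Among the antisense RNAs, 7 were listed as higher. *CR46093* (chromosome 3R, 24318816 to 24319782, BDGP6) had the largest fold of them. It shares 247 of its 967 exon bases with *BRWD3*, a bromodomain and WD-repeat protein gene on the opposite strand, and lies 397 bases from *Nab2*, which encodes a poly(A)-binding zinc finger protein. Its levels were 5.75, 5.48 and 6.88 RPKM in PTBI heads and 0.764, 0.601 and 0.857 RPKM in control heads. The reads behind these values numbered 168, 129 and 234 in PTBI heads and 22, 21 and 22 in control heads. Replicates were close to each other in both groups, at 6.04 ± 0.742 RPKM in PTBI heads and 0.740 ± 0.130 RPKM in control heads (SD, n = 3 each), 8.15-fold higher after PTBI, with a log2 fold change in limma of 2.01 (SE 0.12, BH-adjusted p = 2.4e-05). Neither *BRWD3* nor *Nab2* was listed.

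*CR43465* (chromosome 2L, 5969859 to 5971025, BDGP6) has the same ends as *Ucp4B*, a mitochondrial carrier gene on the opposite strand that was not listed, and shares all of its exon bases with it. It had 9, 11 and 13 reads in PTBI heads and 2, 2 and 1 reads in control heads, or 0.255, 0.387 and 0.317 RPKM in PTBI heads and 0.0575, 0.0474 and 0.0323 RPKM in control heads. This is 6.99-fold higher in means, with a ratio of read rates of 6.81 (95% exact interval 2.64 to 22.3), an interval that 5 control reads leave wide. Limma gave a log2 fold change of 0.33 (SE 0.09, BH-adjusted p = 0.0083). *CG13992*, which lies 2107 bases away on the same strand as *CR43465*, was listed as higher as well, at 0.129, 0.213 and 0.184 RPKM in PTBI heads and 0.0145, 0.0120 and 0.0326 RPKM in control heads. That neighbour is lower still, and its limma adjusted p on log2(RPKM + 1) was 0.0502, so it did not pass, though it did without PTBI replicate 1 (0.0496).

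*CR46140* (chromosome 3R, 4309944 to 4310869, BDGP6) overlaps *Vps24*, a subunit gene of the ESCRT-III complex, over 739 bases, and starts 109 bases beyond the end of *MP1*, a protease gene of melanization, neither of which was listed. It was at 0.536, 1.11 and 0.676 RPKM in PTBI heads and 0.181, 0.328 and 0.0407 RPKM in control heads. The reads behind these values numbered 15, 25 and 22 in PTBI heads and 5, 11 and 1 in control heads. The controls were far apart, with 1 read in replicate 3 and 11 in replicate 2. The fold of 4.22 was 6.97 without control replicate 2 and 3.04 without control replicate 3. Limma gave a log2 fold change of 0.58 (SE 0.16, BH-adjusted p = 0.0094).

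*CR44960* (chromosome X, 15082616 to 15083753, BDGP6), which overlaps *CG33178* over 597 bases, had 10, 8 and 13 reads in PTBI heads and 1, 4 and 4 reads in control heads. That is 0.307, 0.305 and 0.343 RPKM in PTBI heads and 0.0311, 0.103 and 0.140 RPKM in control heads, 3.49-fold higher, with even injured samples and uneven controls. Limma gave a log2 fold change of 0.27 (SE 0.09, BH-adjusted p = 0.020). The call was lost without PTBI replicate 3 or without control replicate 1 or 2 (limma adjusted p from 0.055 to 0.074).

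The other higher antisense RNAs, *CR43464*, *CR45330* and *CR44119*, were 2.66-fold, 2.48-fold and 2.09-fold higher after PTBI. *CR43464* (chromosome 2L, 2000058 to 2003935, BDGP6), which overlaps *CG33543*, was at 0.160 ± 0.00857 RPKM in PTBI heads and 0.0604 ± 0.0296 RPKM in control heads (SD, n = 3 each), and did not pass the threshold (limma adjusted p = 0.16). *CR45330* (chromosome 2L, 13241807 to 13244724, BDGP6) overlaps a U2 snRNA gene and another antisense RNA, *CR46479*, on the opposite strand, and starts 34 bases beyond the end of *Jhbp13*, a juvenile hormone binding protein gene. It was at 3.42 ± 1.02 RPKM in PTBI heads and 1.38 ± 0.0249 RPKM in control heads (SD, n = 3 each), with a log2 fold change in limma of 0.87 (SE 0.16, BH-adjusted p = 0.0019). This call was lost with the sample medians subtracted (limma log2 fold change 0.21, adjusted p = 0.22). *CR44119* (chromosome 2L, 8201557 to 8205298, BDGP6) overlaps *SLC5A11*, a solute transporter gene linked to sugar sensing, over 1149 bases, and was at 0.921 ± 0.136 RPKM in PTBI heads and 0.441 ± 0.210 RPKM in control heads (SD, n = 3 each). It passed (limma adjusted p = 0.017), but not without control replicate 1 (0.060) or 2 (0.062).

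Of the lncRNAs, 4 were listed as higher. *CR45973* (chromosome 3L, 20404270 to 20407558, BDGP6) has 2 annotated transcripts whose merged exons form a single block of 3289 bases. The end of this block overlaps *CG13248* on the opposite strand by 456 bases. It was at 0.342, 0.337 and 0.415 RPKM in PTBI heads and 0.0612, 0.0420 and 0.0802 RPKM in control heads. The reads behind these values numbered 34, 27 and 48 in PTBI heads and 6, 5 and 7 in control heads. This was 5.97-fold higher after PTBI with a log2 fold change in limma of 0.36 (SE 0.08, BH-adjusted p = 0.0050), which the added 1 RPKM makes small at this level. The listed gene next to it, *zye*, 6046 bases away on the same strand, went the other way: *zye* was at 5.63, 3.56 and 4.77 RPKM in PTBI heads and 11.5, 8.48 and 9.41 RPKM in control heads, 2.10-fold lower. The lncRNA was at 6.08, 9.48 and 8.70% of *zye* in the PTBI samples and at 0.534, 0.496 and 0.852% in the controls, with no overlap (exact two-sided permutation test, p = 0.1, the smallest possible). Because both genes were listed for opposite changes without overlap between groups, their ratio could only separate. This test therefore adds nothing to the listing.

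*CR43461* (chromosome X, 6732717 to 6735917, BDGP6) has 2 exons that lie in introns of *CG3168* on the opposite strand and share no exon base with it. It was at 5.60, 5.44 and 8.37 RPKM in PTBI heads and 2.38, 1.45 and 1.98 RPKM in control heads, with PTBI replicate 3 above the others. The group means of 6.47 ± 1.65 RPKM in PTBI heads and 1.94 ± 0.463 RPKM in control heads (SD, n = 3 each) gave a fold of 3.34, and limma gave a log2 fold change of 1.34 (SE 0.19, BH-adjusted p = 0.00052). Its host *CG3168* was listed as higher too, at 90.5, 97.4 and 84.9 RPKM in PTBI heads and 44.4, 46.6 and 41.5 RPKM in control heads, 2.06-fold. The lncRNA was at 6.18, 5.59 and 9.87% of its host in the PTBI samples and 5.35, 3.12 and 4.77% in the controls (exact two-sided permutation test, p = 0.1, the smallest possible).

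*CR43334* (chromosome 3L, 628435 to 643900, BDGP6) carries the synonym *pri-bantam* in RefSeq, and the gene of the bantam microRNA (*mir-ban*) lies within it on the same strand. Bantam promotes tissue growth and holds back apoptosis in the fly. The listed identifier of *CR43334* is no longer in the annotation, and the gene was matched by its symbol; with the length of 15466 bases found there, all 6 values became whole reads. They were 29, 16 and 29 reads in PTBI heads and 11, 11 and 7 reads in control heads, at 0.0621, 0.0425 and 0.0533 RPKM in PTBI heads and 0.0239, 0.0197 and 0.0171 RPKM in control heads. Over the 6 samples *CR43334* was thus the least abundant of the 22 transcripts per length. Its fold was 2.61, with a ratio of read rates of 2.63 (95% exact interval 1.69 to 4.19). On log2(RPKM + 1) it did not pass (limma log2 fold change 0.05, SE 0.08, BH-adjusted p = 0.60), because 1 RPKM is many times its level. With 0.1 RPKM added *CR43334* did not pass either (limma log2 fold change 0.34, SE 0.15, BH-adjusted p = 0.054). On log2 CPM of the reads it passed (limma log2 fold change 1.33, SE 0.21, BH-adjusted p = 0.00074). It was described in full for its synonym, after its values were seen.

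*CR43838* (chromosome X, 20759736 to 20760953, BDGP6) starts, on the same strand, 118 bases beyond the end of *shakB*, which encodes an innexin of gap junctions and was not listed. It was at 0.741 ± 0.0652 RPKM in PTBI heads and 0.307 ± 0.126 RPKM in control heads (SD, n = 3 each), 2.42-fold higher, with a log2 fold change in limma of 0.42 (SE 0.11, BH-adjusted p = 0.0073).

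Among the transcripts listed as lower, 3 were antisense RNAs. *CR45875* (chromosome 3L, 9890816 to 9892109, BDGP6) lies whole within exons of *CalpB*, a calcium-dependent protease gene on the opposite strand. It was at 0.589, 0.794 and 0.835 RPKM in PTBI heads and 3.45, 2.76 and 2.77 RPKM in control heads. The reads behind these values numbered 23, 25 and 38 in PTBI heads and 133, 129 and 95 in control heads. All injured samples lay close together and far below the controls, 4.05-fold lower in means, with a log2 fold change in limma of -1.20 (SE 0.11, BH-adjusted p = 9.6e-05).

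*CR45142* (chromosome 2R, 13168500 to 13170745, BDGP6) lies opposite *Spt-I*, which encodes a subunit of serine palmitoyltransferase, the first enzyme of sphingolipid synthesis, and shares 1820 exon bases with it. It was at 0.0758, 0.0376 and 0.0390 RPKM in PTBI heads and 0.261, 0.127 and 0.293 RPKM in control heads. The reads behind these values numbered 5, 2 and 3 in PTBI heads and 17, 10 and 17 in control heads. The fold of 4.47 is the largest among the lower transcripts, but rests on 10 reads after PTBI, with a control over PTBI ratio of read rates of 4.27 (95% exact interval 2.12 to 9.51). It missed the threshold on log2(RPKM + 1) (limma log2 fold change -0.22, SE 0.09, BH-adjusted p = 0.056) and passed it on log2 CPM of the reads (limma log2 fold change -1.97, SE 0.38, BH-adjusted p = 0.0016). Without control replicate 2 it passed on log2(RPKM + 1) as well (limma adjusted p = 0.0492). *AGBE*, the glycogen branching enzyme gene 656 bases away on the opposite strand, was listed as lower as well, at 51.9, 45.9 and 48.9 RPKM in PTBI heads and 113, 105 and 107 RPKM in control heads.

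*CR43463* (chromosome 2L, 14359285 to 14361303, BDGP6) lies whole within exons of *Pgant35A*, which encodes an enzyme that starts O-linked glycans. It was at 2.02, 1.32 and 2.23 RPKM in PTBI heads and 5.17, 3.44 and 4.16 RPKM in control heads, 2.29-fold lower, with a log2 fold change in limma of -0.88 (SE 0.18, BH-adjusted p = 0.0024). None of *CalpB*, *Spt-I* and *Pgant35A* was listed.

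The other 5 lower transcripts were lncRNAs, among them *CR43452* and *CR43417*, the most abundant of the lower transcripts. *CR43452* (chromosome 3R, 20678183 to 20679079, BDGP6) was at 7.31, 4.12 and 6.59 RPKM in PTBI heads and 14.1, 15.7 and 16.9 RPKM in control heads, 2.59-fold lower, with a log2 fold change in limma of -1.27 (SE 0.19, BH-adjusted p = 0.00073). *Cpr92F*, a cuticle protein gene 5362 bases away on the same strand, was at 29.3, 18.5 and 26.9 RPKM in PTBI heads and 73.4, 59.7 and 67.7 RPKM in control heads, 2.69-fold lower. In both genes PTBI replicate 2 was the lowest sample. The lncRNA was at 25.0, 22.2 and 24.5% of *Cpr92F* in the PTBI samples and at 19.3, 26.3 and 25.0% in the controls, which overlapped (exact two-sided permutation test, p = 0.9).

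*CR43417* (chromosome 2R, 16817519 to 16819240, BDGP6), which shares 59 exon bases with *CG5550* on the opposite strand, was at 5.30, 4.44 and 7.17 RPKM in PTBI heads and 12.2, 12.5 and 18.3 RPKM in control heads. With 718 reads after PTBI and 1798 in controls it is the most deeply sequenced of the lower transcripts. It was 2.55-fold lower (limma log2 fold change -1.21, SE 0.21, BH-adjusted p = 0.0013).

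*CR13130* (chromosome 2L, 9983671 to 9984743, BDGP6) overlaps the start of *bib*, a channel-family gene of lateral inhibition in neurogenesis, by 99 bases, and *bib* was not listed. It was at 2.50, 2.17 and 2.15 RPKM in PTBI heads and 5.44, 5.91 and 6.65 RPKM in control heads, 2.64-fold lower with little spread in the injured samples (limma log2 fold change -1.09, SE 0.11, BH-adjusted p = 0.00010).

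The remaining lower lncRNAs were low in both groups. *CR43611* (chromosome 2R, 6707306 to 6708960, BDGP6), whose exons lie in introns of *chk* and *CG45092*, had 4, 3 and 8 reads in PTBI heads and 11, 19 and 10 reads in control heads, at 0.300, 0.279 and 0.515 RPKM in PTBI heads and 0.835, 1.19 and 0.852 RPKM in control heads, and limma gave a log2 fold change of -0.52 (SE 0.12, BH-adjusted p = 0.0048). *CR9162* (chromosome 2L, 6078453 to 6079736, BDGP6) lies 2867 bases from *Kr-h1*, a zinc finger gene of the juvenile hormone response that was not listed. It had 6, 2 and 4 reads in PTBI heads and 13, 15 and 8 reads in control heads, at 0.160, 0.0663 and 0.0918 RPKM in PTBI heads and 0.352, 0.335 and 0.243 RPKM in control heads. Its call (limma log2 fold change -0.24, SE 0.09, BH-adjusted p = 0.034) was lost without PTBI replicate 2 or 3 or without control replicate 1 or 2 (adjusted p from 0.073 to 0.11).

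The position of the transcripts, which the rule did not use, was read from the annotation. They were spread over the chromosome arms, with 8 on 2L, 4 on 2R, 3 on 3L, 4 on 3R and 3 on X. With the exons of all transcripts of a gene merged, 10 of the 22 had a single exon. Merged exon length ran from 254 to 15466 bases with a median of 1188, against 1404 over 339 other listed genes. Exons of 14 transcripts overlapped exons of another gene on the opposite strand, by 50 bases or more in each. *CR43334* also held *mir-ban* on its own strand. With it they had 16 partners with shared exon bases, 12 of them coding, and none of the 16 was listed, so the partners have no value here. For *CR43465*, *CR45875* and *CR43463* every exon base is shared with the partner, and reads were still assigned to them. Whether the counting used strand is not stated, so within the shared bases reads of transcript and partner may not have been told apart. In *CR43417* the shared part is 4.28% of its exon bases. Another 5 transcripts overlapped no gene, and exons of *CR45045*, *CR43461* and *CR43611* lay in introns only.

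A listed gene lay within 10 kb of 7 transcripts, which gave 8 pairs. In 7 of the pairs both were listed in the same direction, and *CR45973* with *zye* was the exception. Within 5 kb there were 4 such transcripts, and within 50 kb there were 10, with 12 of 14 pairs in the same direction. The RPKM of *CR43465* was 198, 182 and 172% of that of *CG13992* in the PTBI samples and 396, 396 and 99.1% in the controls, which overlapped (exact two-sided permutation test, p = 0.4). That of *CR45142* was 0.146, 0.0819 and 0.0798% of that of *AGBE* in the PTBI samples and 0.230, 0.121 and 0.274% in the controls, which overlapped too (exact two-sided permutation test, p = 0.2). These pairs are a description, and 259 of the 367 listed genes were higher.

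The size of the fitted changes depended on the scale, since 12 of the transcripts had a mean under 1 RPKM. The median limma log2 fold change of the 14 higher transcripts was 0.42 on log2(RPKM + 1), against 1.18 over all 259 genes listed as higher. On log2 CPM of the recovered reads it was 1.82 over 13 of them, against 1.62 over the 252 listed as higher with whole reads. For the 8 lower transcripts the medians were -0.99 on log2(RPKM + 1) and -1.40 on log2 CPM, beside -1.07 over 108 and -1.34 over 106 genes. On the read scale all 13 higher and all 8 lower transcripts with reads passed, as did 100% of the listed genes with reads. The reads themselves limit the precision: in 11 transcripts the lower group had fewer than 30 reads over its 3 samples, and in 3, *CR43465*, *CR15280* and *CR44960*, fewer than 10. The 95% interval of the ratio of read rates left out 1 for all 21 transcripts and lay beyond 2-fold for 12 of them, with counting error only. The transcripts were listed for a change of at least 2-fold in these same reads, so these counts are no independent support. Such intervals were not computed for the other listed genes.

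PTBI replicate 2 was at one end of the injured samples in all 14 higher transcripts, as the highest in 8 and the lowest in 6 of them. In the 8 lower transcripts it was the lowest in 6. It was also the smallest of the PTBI libraries, at 24.3 M reads, and the part of depth in this was not tested. Among controls, replicate 2 was the lowest in 8 of the 14 higher transcripts and replicate 3 the highest in 8. These counts were not made over the other listed genes, so they may be no trait of these transcripts.

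**Figure D4:**
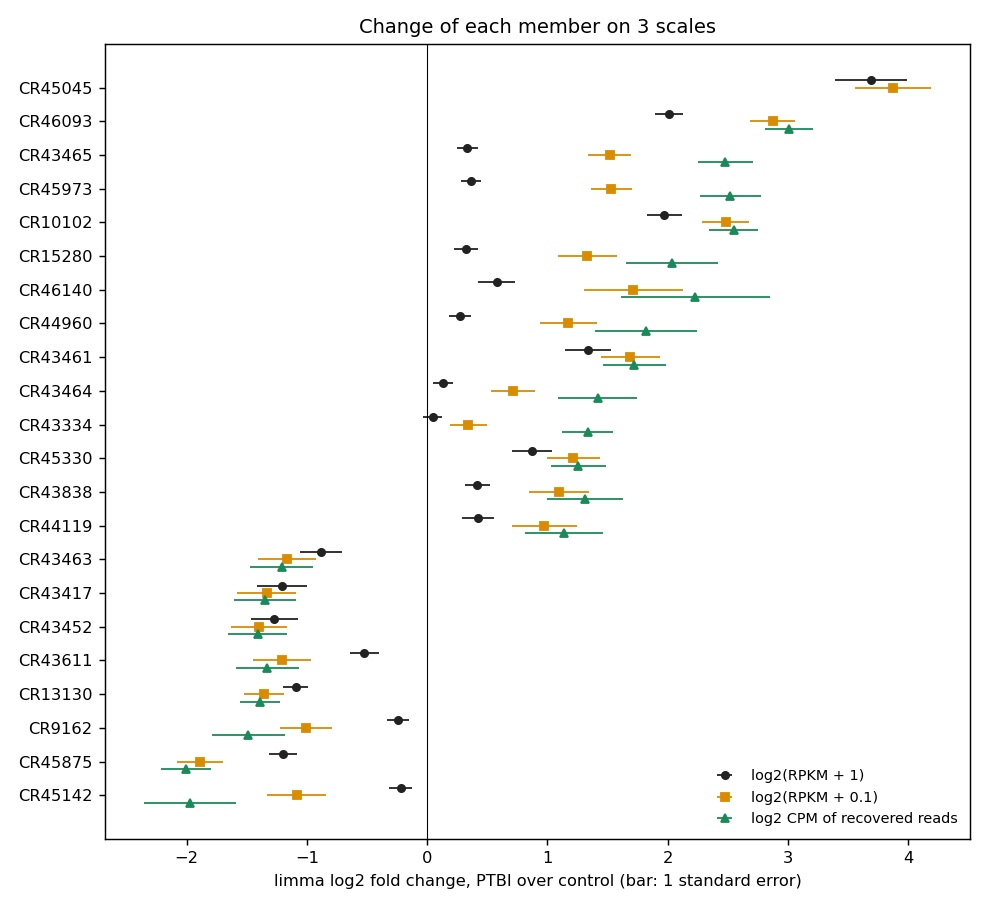
Limma log2 fold change (PTBI over control) of each transcript with 1 standard error, on log2(RPKM + 1) in black, log2(RPKM + 0.1) in orange and log2 CPM of recovered reads in green. On the first and last scale *CR43452* lies at -1.27 and -1.41, *CR46093* at 2.01 and 3.01 and *CR43334* at 0.05 and 1.33; *CR45045* has no recovered reads.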

How the data were processed

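Strand-specific mRNA libraries of 6 head samples were read as single-end 50 bp reads. The authors mapped them with Subjunc to a FlyBase genome of a release that the sources used here do not give, summed the reads of each gene and tested them with voom and limma (the submitters' notes give no versions). The deposited RPKM values of each sample cover only genes that passed the authors' limits of 2-fold and an adjusted p of 0.05. The authors' own comparison (average level, log2 change and both p-values) was not used.

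The transcripts, gene lists and tests were chosen with earlier results of these data known. Log2(RPKM + 1) of all 367 listed genes entered limma 3.58.1 (R 4.3.3) with no replicate block. The p-values were adjusted over these genes by Benjamini and Hochberg's method. The fit was also run on simulated data, which did not measure how often a change at low level is missed. A gene passed at an adjusted p under 0.05 in its listed direction. The labels call the samples biological replicates without saying whether they came from separate cultures, so p-values measure only the spread between these samples, which may be technical. With 3 against 3, an exact permutation test cannot go below 0.1.

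Genes were matched by identifier to the Ensembl 115 annotation of BDGP6 (360 of 367, and *CR43334* by symbol), and biotypes and synonyms were taken from RefSeq (Release 6). The authors' build is not given, but these exon lengths turned RPKM into whole reads for 358 genes. Distances are differences of end and start coordinates. All 22 transcripts are named. Values per sample are given for the 8 higher and 8 lower ones with the largest fold and for those with a listed gene within 10 kb.

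Over all listed genes, deviations from the group means correlated between PTBI and control samples of the same number (at 0.24, 0.12 and 0.16), past the limit of 0.1 set for treating them as paired, although the labels give no shared batch for a number. Over the transcripts alone these correlations were -0.090, -0.031 and 0.016, none past that limit. Alternatives covered pseudocounts of 0.1 and 5, a filter at 1 RPKM, a replicate block, centring, recovered reads with 0.5 reads added, a 2-fold minimum, group medians, each sample left out, and distance and overlap limits. Python 3.11.15, pandas 2.3.3, numpy 2.4.6, scipy 1.17.1 and matplotlib 3.10.9 were used. Sequences were not used here.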

Additional observations from a re-analysis of the deposited data

How the results depend on the processing

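The count of 12 higher transcripts was 5 with a mean of at least 1 RPKM, where only 5 remained to be tested, 4 with a 2-fold minimum on log2(RPKM + 1) and 4 with centring on sample medians. The 7 lower ones were 4 with the 2-fold minimum. With a pseudocount of 5, 10 higher and 6 lower transcripts passed. Leaving out 1 sample gave 9 to 12 higher and 6 to 7 lower transcripts. For these settings, and for the replicate block below, the shares over all listed genes were not counted. These counts may therefore be no trait of the transcripts. The median log2 fold change of the higher transcripts was 1.43 with a pseudocount of 0.1, 0.12 with 5, 1.82 on recovered reads and -0.24 with centring, and that of the lower ones -1.27, -0.45, -1.40 and -1.65. Leaving out 1 sample gave medians of 0.37 to 0.48 for the higher and -1.05 to -0.90 for the lower transcripts. Centring subtracts the median of genes listed mostly for a rise, and turned the sign of 9 higher transcripts: -0.30 for *CR45973*, -0.32 for *CR43465*, -0.081 for *CR46140*, -0.34 for *CR15280*, -0.38 for *CR44960*, -0.53 for *CR43464*, -0.61 for *CR43334*, -0.24 for *CR43838* and -0.24 for *CR44119*. Of these, *CR43465*, *CR44960*, *CR43464* and *CR43334* were then under the threshold in the lower direction (limma adjusted p = 0.042, 0.029, 0.0070 and 0.0027). Centring also ended the call of *CR45330*. A replicate block left 12 higher and 7 lower transcripts and changed no call. Within 5 kb, 4 transcripts had a listed neighbour. The count of 14 transcripts with shared exons held with 50 shared bases as the minimum. The choice to leave out *CR45045*, giving 11 higher transcripts, was made after seeing the data. Motifs in promoters were not run, because no promoter sequence was used here. Depth limits *CR43465*, *CR15280* and *CR44960* most, each with fewer than 10 control reads in all. Leaving out 1 sample ended the call of *CR15280*, *CR44960*, *CR44119* or *CR9162* in at least 1 case and gave one to *CR45142*.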

Other observations

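Other noncoding genes in the listing lay outside the rule through their symbols. The snoRNA host genes *Uhg7*, *Uhg8* and *Uhg2*, whose introns hold snoRNAs that guide the modification of ribosomal RNA, were all listed as higher, and 4, 3 and 4 snoRNA genes of the annotation lie inside them on the same strand. *Uhg7* was at 1.18, 1.17 and 0.810 RPKM in PTBI heads and 0.0797, 0.197 and 0.626 RPKM in control heads, 3.50-fold higher, with a log2 fold change in limma of 0.68 (SE 0.17, BH-adjusted p = 0.0079). It had 15, 12 and 12 reads in PTBI heads and 1, 3 and 7 reads in control heads. Without control replicate 3 the fold was 7.62 (limma adjusted p = 0.0022), and without control replicate 1 it was 2.56 (limma adjusted p = 0.028). *Uhg8* was at 3.54, 4.06 and 2.75 RPKM in PTBI heads and 1.49, 1.00 and 1.22 RPKM in control heads, 2.79-fold higher (limma log2 fold change 0.99, SE 0.15, BH-adjusted p = 0.00062). *Uhg2*, the most abundant of the host genes listed, was at 7.75, 9.41 and 7.33 RPKM in PTBI heads and 3.28, 3.83 and 4.14 RPKM in control heads, 2.18-fold higher (limma log2 fold change 0.95, SE 0.13, BH-adjusted p = 0.00040). *CG31427*, which the annotation now gives as the pseudogene *CR31427*, was at 0.455, 0.498 and 0.391 RPKM in PTBI heads and 0.190, 0.179 and 0.244 RPKM in control heads, 2.19-fold higher (limma log2 fold change 0.27, SE 0.09, BH-adjusted p = 0.021), and its call was lost without control replicate 1 or 2 (limma adjusted p = 0.064 and 0.076). Leaving samples out for these genes was chosen after seeing the data. These genes were listed for their change in the same samples, and the groups did not overlap in any of them. *CR44651*, left out by name, was at 0.360, 0.708 and 0.567 RPKM in PTBI heads and 0.183, 0.201 and 0.205 RPKM in control heads.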
